A study of Mus musculus with 4 samples.

Results

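The enzymes that carry long-chain fatty acids into the mitochondrion and shorten them there were compared between livers of Fto knockout (KO) mice and of wild-type (WT) mice. The set held 10 genes, taken by symbol from GENCODE M21 out of 37315 gene identifiers in the read count files, and all 10 passed the filter on low counts that left 13836 genes. KO libraries came from C57BL/6 mice of 23 weeks labelled as Fto knockout, and WT libraries from C57BL/6 mice of the same age labelled as wild type, with 2 libraries for each genotype. The labels do not give the Fto allele, whether the knockout covered the whole body or the liver alone, the sex, or whether each library is a different mouse. The p-values therefore rest on library-to-library spread that could be technical. Fto encodes a demethylase that removes methyl groups from RNA, and the comparison asks which liver transcripts differ when it is disrupted.

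Fatty acids are burned in liver mitochondria by a fixed sequence of steps. Long-chain acyl groups cross the mitochondrial membranes as carnitine esters, through the outer transferase CPT1A, the carrier SLC25A20 and the inner transferase CPT2. Inside, acyl-CoA dehydrogenases of different chain-length preference remove electrons, the trifunctional protein hydrates, oxidises and cleaves long chains, and thiolases release acetyl-CoA, which the liver of fasted animals turns into ketone bodies. Many of these genes are known targets of PPARα, a nuclear receptor activated by fatty acids.

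Fto itself had 607 and 486 reads in the KO libraries, against 1749 and 1292 in the WT libraries, and was called lower in KO by edgeR's quasi-likelihood test (adjusted p = 0.0109), with a log2 fold change of -1.57 and an SE of 0.195. The libraries held 40947808 to 44689114 counts in KO and 39549592 to 41332870 in WT. The hepatocyte marker Alb, which encodes albumin, stood at 58253 and 70110 CPM (counts scaled by library size) in KO and 53495 and 64831 CPM in WT. Of the 10 hepatocyte markers listed, none was called. The lowest p was that of Cps1, a urea cycle enzyme, with 5340 and 5095 CPM in KO and 3203 and 3047 CPM in WT (log2 fold change 0.74, adjusted p = 0.0821, edgeR). Libraries numbered 2 differed from those numbered 1 with transcript length in both genotypes. On the log2 scale, replicate 2 stood above replicate 1 by a median of 0.18 in KO and 0.35 in WT for protein-coding genes under 1000 bases, while the median for those over 8000 bases was -0.44 in KO and -0.48 in WT.

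None of the 10 enzymes passed the test between genotypes, and 9 of them had a lower fitted level in KO than in WT. The carnitine carrier Slc25a20 stood lowest in KO, at 66.5% of WT, followed by the short-chain dehydrogenase Acads at 72.0% and the medium-chain dehydrogenase Acadm at 76.7%. The outer transferase Cpt1a was the exception, at 114% of WT. The median log2 fold change of the 10 was -0.19, with a range from -0.59 to 0.19, beside a median of 0.006 over all tested genes, of which 49.2% were negative. By edgeR 0 of 10 were called at an adjusted p under 0.05, a threshold that 1.91% of all tested genes passed, and 0.947% of all tested genes passed it as lower in KO. DESeq2, which called 4.15% of tested genes, and limma-voom, which called 1.86%, also called 0 of 10. A fit with a term for the replicate number, an alternative described at the end, called 4 of 10 lower. It called 19.7% of all tested genes in either direction.

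At an unadjusted p under 0.05, Slc25a20 and Acads passed, both lower in KO, where 13.0% of all tested genes passed in either direction and 6.48% as lower. Leaving out KO replicate 1 or WT replicate 2 left 0 of 10 at that unadjusted level. In 7 of 10 enzymes both KO libraries lay below both WT libraries, an order held by 20.4% of all tested genes, and in 0 of 10 both lay above, an order held by 21.6%. Each enzyme had between 5397 and 53723 reads in a library, so that counting error was at most 1.36% and the spread between libraries set the precision. The SE of the log2 fold changes ran from 0.163 to 0.213. The smallest log2 fold change of any called gene in this comparison was 0.91 in size, larger than that of every enzyme of the set.

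**Figure D1:**
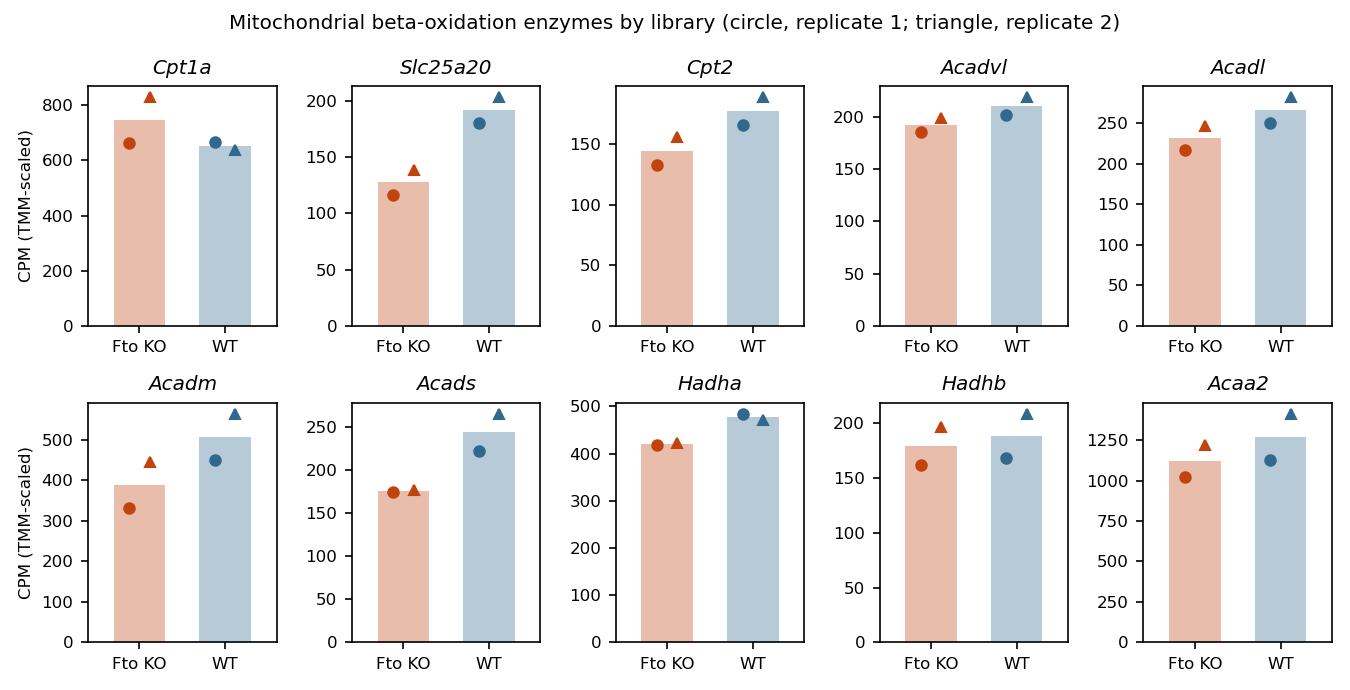
Level of each enzyme in CPM after TMM scaling (y axis, from 0) in the Fto KO and WT libraries; bars are means of 2 libraries, circles replicate 1 and triangles replicate 2. For Slc25a20 the KO libraries lie at 117 and 138 CPM, below the WT libraries at 181 and 203 CPM, and for Cpt1a the KO replicate 2 at 828 CPM lies above the other 3 libraries.

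Sequence before the RefSeq start is shown for 3 genes: Cpt1a, which alone had a higher fitted level in KO, Slc25a20, which had the lowest relative to WT, and Hadhb, whose window overlaps that of Hadha, the gene of its partner subunit in the trifunctional protein. No relation between these sequences and the fold changes was tested. Hadha and Hadhb start in opposite directions, with 272 bases between their RefSeq start sites and 85 between their outermost GENCODE starts. The RefSeq start of Cpt1a lies 967 bases inside the GENCODE gene, that of Hadha 182 bases inside, that of Slc25a20 48 and that of Hadhb 5, so the window of Cpt1a lies wholly, and that of Hadhb largely, within the bounds of a GENCODE gene. Each is the 250 bases before the RefSeq start site, 5′ to 3′ on the gene's own strand in build GRCm38.p6, at chr19:3323051-3323300 (plus strand) for Cpt1a, chr9:108661886-108662135 (plus) for Slc25a20 and chr5:30155003-30155252 (plus) for Hadhb. Capitals mark every match, on either strand, to the letters AGGTCA, an element bound by PPARα and other nuclear receptors, to GGGCGG, the GC box, or to CCAAT.
Cpt1a: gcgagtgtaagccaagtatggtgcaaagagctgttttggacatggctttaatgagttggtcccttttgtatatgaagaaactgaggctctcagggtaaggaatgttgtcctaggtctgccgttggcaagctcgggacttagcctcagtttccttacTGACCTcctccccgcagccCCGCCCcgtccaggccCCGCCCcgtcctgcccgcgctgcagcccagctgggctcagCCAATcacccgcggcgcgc
Slc25a20: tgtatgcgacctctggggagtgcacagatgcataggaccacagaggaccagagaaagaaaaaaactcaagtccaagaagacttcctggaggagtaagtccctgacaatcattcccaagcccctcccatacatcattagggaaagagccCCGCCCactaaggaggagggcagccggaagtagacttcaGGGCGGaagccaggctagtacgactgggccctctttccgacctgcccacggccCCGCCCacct
Hadhb: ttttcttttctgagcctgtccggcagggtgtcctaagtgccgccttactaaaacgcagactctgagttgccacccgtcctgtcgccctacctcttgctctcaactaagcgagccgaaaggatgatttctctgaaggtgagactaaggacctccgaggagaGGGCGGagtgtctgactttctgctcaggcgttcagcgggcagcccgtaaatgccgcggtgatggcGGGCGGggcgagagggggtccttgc

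The same search covered the starts of 9 of the enzyme genes, all but Acaa2, and all 32851 RefSeq promoters. The GC box was in 7 of the 9 windows, beside 32.7% of all promoters, with 4 matches in Acadl and 3 in Slc25a20. G and C made up 49.6% (Acadvl) to 68% (Acadl) of the windows, beside a median of 52.4% over all promoters. Only the window of Acadvl lay below that median, and the part of base content in the GC box count was not tested. The windows of Hadha and Hadhb, both among the 7, share 228 bases and are not separate cases. AGGTCA was in 3 of the 9, those of Cpt1a, Acadm and Acadvl, beside 14.0% of all promoters. The spaced repeat AGGTCANAGGTCA, which contains AGGTCA at both ends and is the consensus for PPARα with its partner RXR, was in 0 of the 9 and in 0.0335% of all promoters. CCAAT was in 1 of the 9, that of Cpt1a, beside 33.8%. TATAAA and the E-box CACGTG were in 0 of the 9, beside 12.4% and 6.02% of all promoters. A match is a run of letters in this window and was not tested as a binding site.

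Among the genes of entry into the mitochondrion, Cpt1a encodes the transferase that makes long-chain acylcarnitine at the outer membrane, the step that malonyl-CoA inhibits. It lies at chromosome 19, 3322334 to 3385733, plus strand (mm10). Its level was 663 and 828 CPM in the KO libraries, against 667 and 636 CPM in the WT libraries. The groups overlapped, since only KO replicate 2 lay above both WT libraries. The fitted log2 fold change was 0.19 (SE 0.183, 95% interval -0.23 to 0.62, adjusted p = 0.753), and without KO replicate 2 it was 0.02.

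Slc25a20 encodes the carrier that exchanges acylcarnitine for free carnitine across the inner membrane, and lies at chromosome 9, 108662088 to 108684641, plus strand. It stood at 117 and 138 CPM in KO and at 181 and 203 CPM in WT. Both KO libraries lay below both WT libraries. The log2 fold change was -0.59 (SE 0.182, 95% interval -1.01 to -0.17), with an unadjusted p of 0.0125 that became 0.202 after adjustment in the edgeR fit. Between libraries numbered 1 the log2 ratio of KO over WT was -0.63, and between those numbered 2 it was -0.55.

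Cpt2, on chromosome 4 from 107903981 to 107923610 on the minus strand, encodes the inner-membrane transferase that returns the acyl group to CoA. It stood at 133 and 156 CPM in KO and at 166 and 189 CPM in WT. The groups did not overlap, but they lay close: KO replicate 2 and WT replicate 1 differed by less than the libraries of either genotype differed from each other. The log2 fold change was -0.29 (SE 0.181, 95% interval -0.71 to 0.13, adjusted p = 0.581, edgeR).

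Ratios of read counts within a library need no scaling between libraries. These pairs were chosen after their values were seen, so the ratios are a description with no test. Reads of Cpt1a over those of Slc25a20 were 5.68 and 5.99 in the KO libraries and 3.70 and 3.13 in the WT libraries. Cpt1a over Cpt2 gave 4.98 and 5.30 in KO, against 4.03 and 3.37 in WT. Even Cpt2 over Slc25a20, genes that were both lower in KO, gave 1.14 and 1.13 in KO and 0.918 and 0.928 in WT. In each of these ratios both KO libraries lay above both WT libraries, and the gap was wider than the difference between libraries of a genotype.

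**Figure D2:**
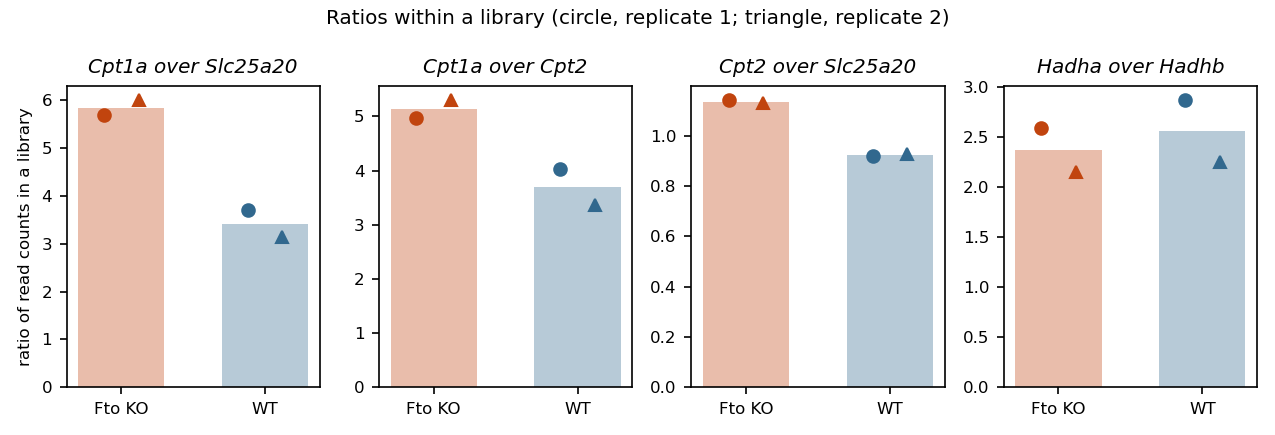
Ratio of read counts of 2 genes within a library (y axis, from 0) in Fto KO and WT; bars are means of 2 libraries, circles replicate 1 and triangles replicate 2. The 3 ratios among Cpt1a, Cpt2 and Slc25a20 are higher in both KO libraries, as with Cpt1a over Slc25a20 at 5.68 and 5.99 against 3.70 and 3.13, while Hadha over Hadhb follows the replicate number in both genotypes.

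The acyl-CoA dehydrogenases are flavoenzymes that catalyse the opening step of each cycle and are named by the chain length they prefer. All 4 genes had both KO libraries below both WT libraries, an order held by 20.4% of all tested genes. The sizes differed along the family. Acadvl, for very long chains, had a log2 fold change of -0.13 (SE 0.169), Acadl, for long chains, -0.20 (SE 0.177), Acadm, for medium chains, -0.38 (SE 0.213), and Acads, for short chains, -0.47 (SE 0.177). Their SEs are as large as the steps between them, and no test of the differences among the 4 was made.

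Acads (chromosome 5, 115110299 to 115119346, minus strand) stood at 174 and 177 CPM in KO and at 222 and 265 CPM in WT. The KO libraries were almost alike, and the WT libraries differed from each other by nearly as much as WT replicate 1 differed from KO. Its 95% interval ran from -0.88 to -0.06, with an unadjusted p of 0.0293 and an adjusted p of 0.307 in the edgeR fit. Acadm (chromosome 3, 153922357 to 153944632, minus strand), whose human counterpart is mutated in medium-chain acyl-CoA dehydrogenase deficiency, stood at 331 and 446 CPM in KO and at 449 and 563 CPM in WT. In both genotypes replicate 2 was well above replicate 1, and KO replicate 2 came within a few CPM of WT replicate 1. A processed pseudogene, Gm5131, matches the Acadm transcript over 681 bases at 93.5% identity and was not analysed here. The interval of the log2 fold change of Acadm ran from -0.88 to 0.11 (adjusted p = 0.527, edgeR).

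Acadl (chromosome 1, 66830839 to 66863277, minus strand) stood at 217 and 247 CPM in KO and at 250 and 282 CPM in WT. Acadvl (chromosome 11, 70010183 to 70015411, minus strand) stood at 186 and 198 CPM in KO and at 202 and 218 CPM in WT. In both genes the nearest KO and WT libraries were closer to each other than the libraries of either genotype, and neither passed (adjusted p = 0.734 for Acadl and 0.842 for Acadvl, edgeR). Exons of Acadvl share 1151 bases with exons of Dvl2, a Wnt signalling gene on the opposite strand, and the library kit does not mark strand, so reads there cannot be told apart. Dvl2 held 313 and 215 reads in KO and 292 and 161 in WT, against at least 7939 reads of Acadvl in a library. These counts do not show how many reads of the shared bases were left out of both genes, since the counting settings are not known.

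Within the family the ratio of Acadvl to Acads reads was 1.07 and 1.12 in KO and 0.908 and 0.823 in WT. Both KO libraries lay above both WT libraries, again in a pair chosen after its values were seen and not tested. For Acadm over Acadl the groups overlapped, with 1.53 and 1.81 in KO against 1.80 in WT replicate 1.

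Of the trifunctional protein, Hadha (chromosome 5, 30118304 to 30155162, minus strand) encodes the subunit with hydratase and long-chain hydroxyacyl-CoA dehydrogenase activity, and Hadhb (chromosome 5, 30155248 to 30184593, plus strand) the subunit with thiolase activity. Hadha stood at 418 and 423 CPM in KO and at 484 and 470 CPM in WT. The libraries of each genotype were close and the groups did not overlap, and the log2 fold change was -0.18 (SE 0.163, 95% interval -0.56 to 0.20, adjusted p = 0.733, edgeR). Hadhb stood at 161 and 196 CPM in KO and at 169 and 208 CPM in WT. Its groups overlapped almost wholly, and its log2 fold change of -0.08 (SE 0.196, adjusted p = 0.939) turned to 0.06 without KO replicate 1 and to 0.08 without WT replicate 2.

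The read ratio of these neighbouring genes varied with the replicate number. Hadha over Hadhb was 2.59 and 2.16 in KO and 2.87 and 2.26 in WT. In both genotypes replicate 1 had the higher ratio, and the groups overlapped. The level of Hadhb is uncertain, because the processed pseudogene Gm13910 has a stretch of 1428 bases with 99.8% identity to the Hadhb transcript, and reads that fit both places may have been dropped or divided. Gm13910 was given 42 and 38 reads in KO and 36 and 41 in WT, against 7147 to 7928 of Hadhb. A second pseudogene, Gm9108, matched 1426 bases at 97.6% and was not analysed here.

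Acaa2 encodes the thiolase that acts on medium and long chains in the matrix and lies at chromosome 18, 74779197 to 74806208, plus strand. It stood at 1024 and 1218 CPM in KO and at 1128 and 1411 CPM in WT. The groups overlapped, and replicate 2 was the higher library in both genotypes. The log2 fold change was -0.18 (SE 0.194, 95% interval -0.63 to 0.27, adjusted p = 0.792, edgeR).

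**Figure D3:**
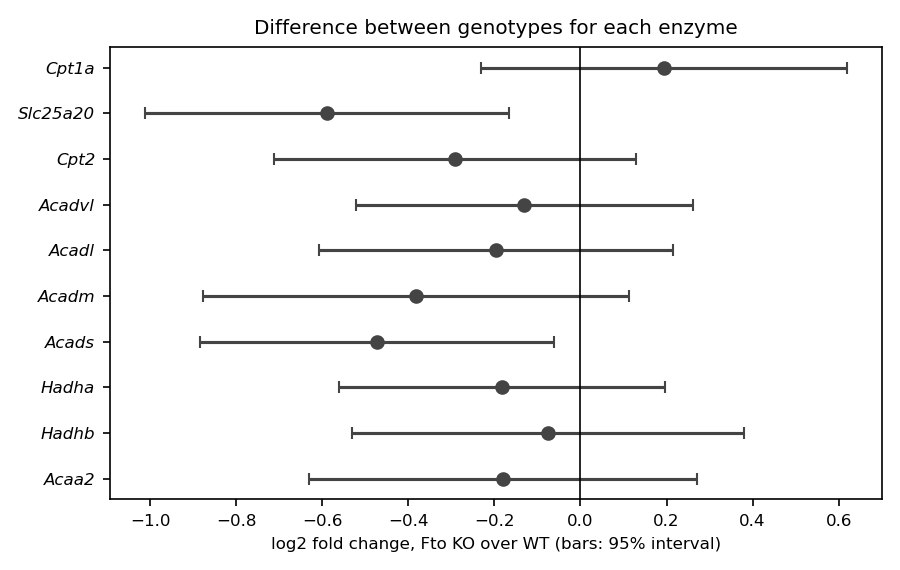
Fitted log2 fold change of KO over WT for each enzyme (x axis), with bars for the 95% interval from the edgeR fit of 2 libraries per genotype. The intervals of Slc25a20 (-1.01 to -0.17) and Acads (-0.88 to -0.06) lie below 0 before adjustment over all genes, and the other 8 hold 0.

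Levels among the enzymes were compared per kilobase of exon, as FPKM (counts scaled by library size and exon length) computed from the counts. Acaa2 was the most abundant, at 740 ± 90.5 FPKM in KO and 838 ± 132 FPKM in WT (SD, n = 2 each), and its lowest library lay above every library of every other enzyme. Below it came Acadl with a mean over the 4 libraries of 124 FPKM, Acadm with 114, Acads with 92.4, Cpt1a with 91.4, Acadvl with 74.9, Cpt2 with 67.3, Hadha with 51.4, Slc25a20 with 33.0 and Hadhb with 27.8. From Acadl down to Cpt1a each neighbour overlapped the next over the libraries, as did Acadvl with Cpt2 and Slc25a20 with Hadhb. The gene length used decides much of this order, and for Acadvl it includes the 1151 bases shared with Dvl2. With the longest annotated transcript in place of all exon bases, 3 of the 10 kept their place, namely Acaa2 first, Slc25a20 ninth and Hadhb last, and Cpt1a came after Acaa2 and Acadm with 162 FPKM.

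Summed over the 10 enzymes, reads made up 0.354% and 0.394% of the KO libraries and 0.402% and 0.428% of the WT libraries. The KO shares were both lower, with KO replicate 2 close to WT replicate 1. Acaa2 alone held 28.8% to 31.7% of these reads. Transcripts of mitochondrial DNA took 5.81% and 7.49% of the counts in KO and 7.25% and 7.52% in WT. With those transcripts left out of the total, the enzymes' share was 0.376% and 0.426% in KO and 0.433% and 0.463% in WT.

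Replicate number moved with the enzymes' levels. In 8 of 10, replicate 2 was higher than replicate 1 in both genotypes, Cpt1a and Hadha being the others. The log2 ratio of KO over WT had the same sign between libraries numbered 1 and between those numbered 2 in 9 of 10. Cpt1a was the exception, with -0.01 between libraries numbered 1 and 0.38 between those numbered 2. Neither count was taken over all tested genes, so these counts do not set the enzymes apart. The medians of protein-coding genes with a longest transcript of 2000 to 3000 bases, the class of Slc25a20, Cpt2, Acadvl, Acadm and Acads, were 0.10 in KO and 0.13 in WT for replicate 2 over replicate 1, and -0.02 for KO over WT. Over the length classes the median for KO over WT rose from -0.11 under 1000 bases to 0.11 over 8000 bases. It was -0.06 at 1000 to 2000 bases, the class of Acaa2 and Acadl. At 3000 to 5000 bases, the class of Cpt1a, Hadha and Hadhb, it was 0.02. The labels do not say what the replicate number stands for. With a term for the replicate number in the fit, 4 of the 10 enzymes were called lower, where 19.7% of all tested genes were called. Whether libraries of equal number belong together is not known, so that fit is an alternative only. The part of transcript length in these differences was not tested.

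**Figure D4:**
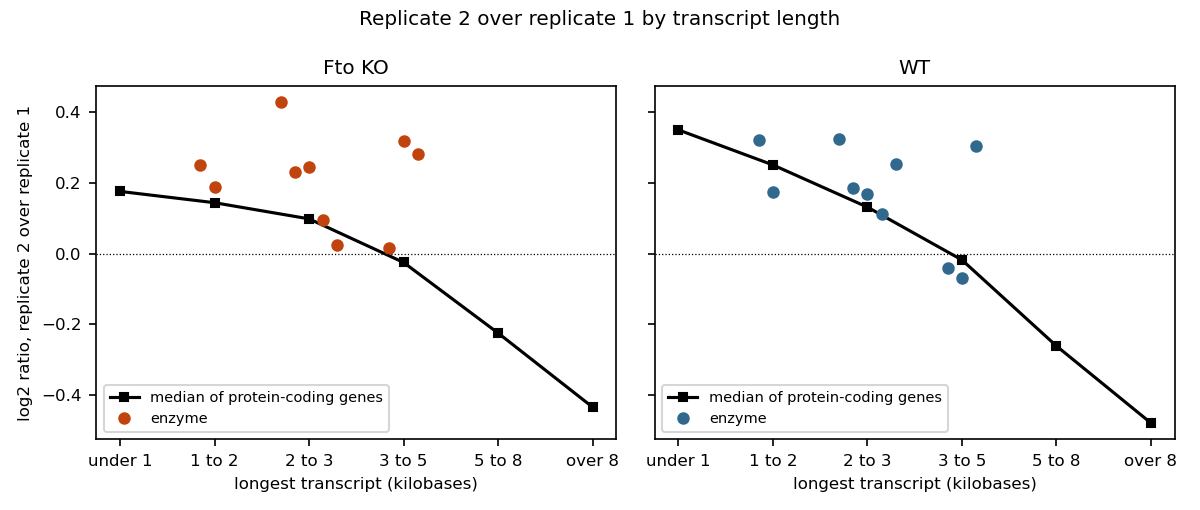
Log2 ratio of replicate 2 over replicate 1 (y axis) by class of longest transcript in kilobases (x axis), in Fto KO (left) and WT (right); squares are medians of tested protein-coding genes and circles the 10 enzymes, spread sideways within a class. The medians fall to -0.44 in KO and -0.48 in WT in the class of the longest transcripts, and the enzymes lie above the median of their class in 8 of 10 in KO and 6 of 10 in WT.

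The other enzymes of the same matrix were lower in KO in fitted level but did not pass. Of 12 further matrix enzymes 0 were called, 11 had a negative log2 fold change and the median was -0.39. Eci1, an isomerase for unsaturated acyl chains, stood at 124 and 125 CPM in KO and at 203 and 221 CPM in WT. Its log2 fold change was -0.77 (SE 0.168) and its adjusted p 0.0738 by edgeR. Hsd17b10, a short-chain hydroxyacyl-CoA dehydrogenase, had -0.89 (adjusted p = 0.112), Acad10, a dehydrogenase-like protein, -0.63 (0.171) and Hadh, the medium- and short-chain hydroxyacyl-CoA dehydrogenase, -0.58 (0.227). At an unadjusted p under 0.05, 6 of the 12 passed, all lower, where 6.48% of all tested genes passed as lower.

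Genes of electron transfer and carnitine supply also had lower fitted levels in KO, with 0 calls. The genes of the electron transfer flavoprotein and its dehydrogenase, Etfa, Etfb and Etfdh, had log2 fold changes of -0.16, -0.24 and -0.32. Of 7 genes of carnitine supply and other carnitine acyltransferases, 6 were tested, 0 called and all 6 negative, with a median of -0.42. Crat, which makes acetylcarnitine, stood at 50.03 and 62.0 CPM in KO and at 101 and 105 CPM in WT (log2 fold change -0.88, SE 0.188, adjusted p = 0.0682, edgeR). Bbox1, which completes carnitine synthesis, had -0.40 (adjusted p = 0.491) and the carnitine importer Slc22a5 -0.32 (0.523). Cpt1b, the muscle form of the outer transferase, was at 0.541 and 0.350 CPM in KO and 0.590 and 0.631 CPM in WT, against at least 636 CPM of Cpt1a in a library, on a scale that takes no account of length. The gene not tested was Tmlhe, with 0 reads in each library. GENCODE M21 places Tmlhe on the scaffold GL456233.1, and whether reads were aligned there was not checked.

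Genes that set the malonyl-CoA level and those of AMPK, the kinase that lowers it, showed no call among 9 and a median of -0.005. Among them Mlycd, which degrades malonyl-CoA, had a log2 fold change of 0.22 (adjusted p = 0.676, edgeR), the AMPK subunit Prkaa2 0.25 (0.700) and Prkag2 -0.31 (0.628). Of the 4 genes that handle propionate from odd chains, 0 were called, with Pcca at -0.56 (adjusted p = 0.275), Mcee at -0.35, Pccb at -0.21 and Mmut at 0.15.

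Some peroxisomal genes and other PPARα targets were called lower in KO, as were 0.947% of all tested genes. Of 16 tested genes of peroxisomal beta-oxidation, which shortens very long chains, 2 were lower and 0 higher, with a median of -0.42. They were Abcd2, a peroxisomal fatty acid transporter (0.887 and 1.75 CPM in KO, 18.6 and 15.5 in WT, log2 fold change -3.70, adjusted p = 0.00316), and the thiolase Acaa1b (922 and 817 CPM in KO, 2020 and 2231 in WT, -1.29, adjusted p = 0.0146). Of 17 further PPARα targets 4 were called lower and 0 higher, with a median of -0.52. By sign 14 were negative and 3 positive, the highest being Fgf21 at 0.97 (adjusted p = 0.223, edgeR). The fatty acid transporter Cd36 and the pantetheinase Vnn1 had log2 fold changes of -2.25 and -1.51 (adjusted p = 0.00323 and 0.0263), and the thioesterase Acot2 and the aldehyde dehydrogenase Aldh3a2 -1.29 and -0.92 (0.0478 and 0.0462). With KO replicate 2 left out, the adjusted p of Acot2 was 0.0512. That of Aldh3a2 was 0.0997 with KO replicate 1 left out and 0.0857 with WT replicate 2 left out. No test of the difference between these lists and the 10 enzymes was made.

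Of 18 genes for transcriptional regulators of oxidation, 1 was called lower and 0 higher, with a median of 0.14. The called gene was Pparg, the receptor of fat storage (7.77 and 7.32 CPM in KO, 15.4 and 22.1 in WT, log2 fold change -1.31, adjusted p = 0.0352, edgeR). Ppargc1a, a coactivator of mitochondrial genes, had -0.69 (adjusted p = 0.219), Nrf1, a regulator of respiratory genes, 0.64 (0.201) and the desuccinylase gene Sirt5 -0.48 (0.407). Ppara, named because it encodes PPARα and not by its p, stood at 267 and 183 CPM in KO and at 225 and 144 CPM in WT, with overlapping groups. Its log2 fold change was 0.29, with an SE of 0.270 and an adjusted p of 0.751 by edgeR.

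Nuclear genes for other mitochondrial proteins had mixed signs. Of 25 nuclear genes for the citrate cycle, respiratory chain, import and chaperones, 0 were called, 16 were negative and 9 positive, and the median was -0.10. Cs, the citrate synthase gene, had -0.43 (adjusted p = 0.339, edgeR) and Dlst -0.34 (0.458), while the chaperone genes Hspd1 and Hspa9 had 0.34 and 0.26 and did not pass. The 13 protein-coding genes of mitochondrial DNA had 0 calls, 11 negative and 2 positive log2 fold changes, and a median of -0.20. Among them mt-Cytb had -0.32 and mt-Nd4 -0.29.

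**Figure D5:**
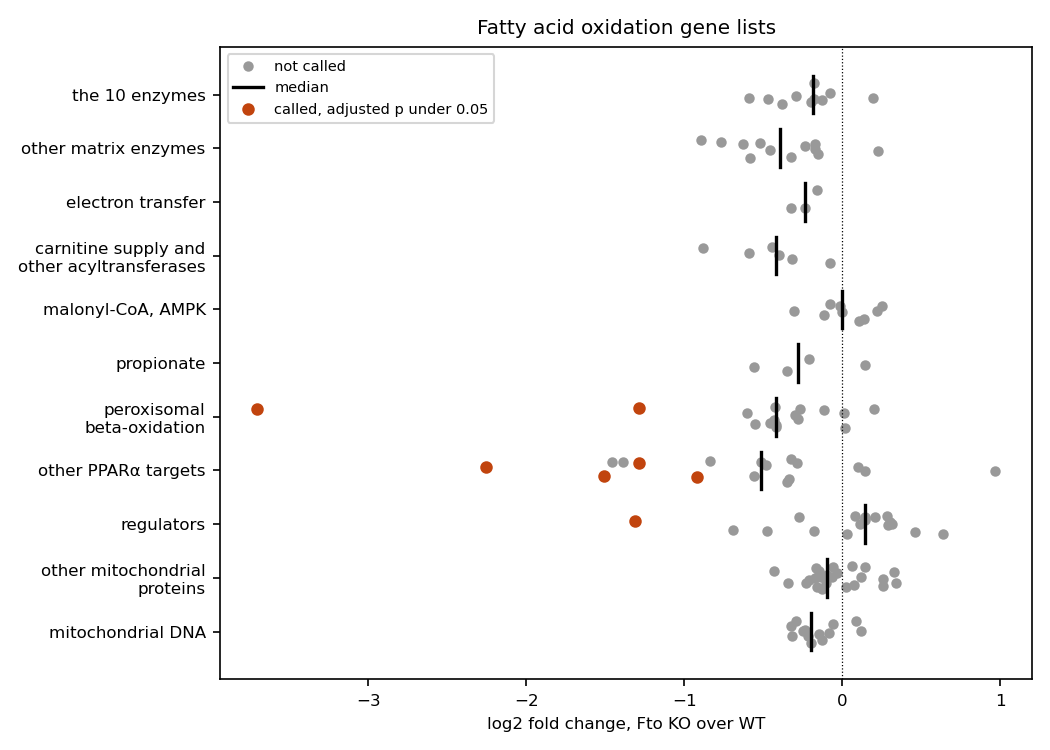
Log2 fold change of KO over WT (x axis) of each tested gene of the 10 enzymes and 10 further lists (rows); vertical bars are list medians and coloured points genes called by edgeR at an adjusted p under 0.05. The calls lie among peroxisomal genes (2), other PPARα targets (4) and regulators (1), and none among the 10 enzymes, whose values run from -0.59 to 0.19.

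Markers of other cells moved with genotype or with replicate number, and in bulk tissue fewer cells of a type and less RNA per cell cannot be told apart. All 10 Kupffer cell markers were higher in KO at an unadjusted p under 0.05, which 13.0% of all tested genes passed in either direction. Of the 10, 2 were called, Marco (log2 fold change 1.66, adjusted p = 0.0155, edgeR) and Csf1r (0.97, 0.0478). The summed level of the 10 was 346 to 372 CPM in KO and 160 to 239 CPM in WT. For Csf1r the adjusted p was 0.0842 with KO replicate 1 left out and 0.0670 with WT replicate 1 left out. The 7 adipocyte markers summed to 3.42 and 18.1 CPM in KO and 7.95 and 26.7 CPM in WT, with the higher value in replicate 2 each time and 0 of 5 tested called. The lowest p on that list was that of Cfd, with 20 and 127 reads in KO and 139 and 245 in WT (log2 fold change -1.44, SE 0.733, adjusted p = 0.477), and both KO libraries lay below both WT libraries. Fabp4 had -0.51 with overlapping groups. Adipoq had 0 and 71 reads in KO and 1 and 70 in WT, and Lep 0 and 36 in KO and 0 and 41 in WT.

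The endothelial markers summed to 94.4 to 112 CPM in KO and 85.7 to 123 CPM in WT, the stellate cell markers to 142 to 149 CPM in KO and 140 to 190 CPM in WT, and the cholangiocyte markers to 33.5 to 44.7 CPM in KO and 26.4 to 39.0 CPM in WT, with 0 called on each list. These sums cover genes that differed more. Lyve1, a marker of sinusoidal endothelium, stood at 1.28 and 1.67 CPM in KO and at 3.44 and 4.36 CPM in WT (log2 fold change -1.40, adjusted p = 0.0623, edgeR). The stellate cell genes Lrat and Col1a1 had -0.59 and -0.73, both at an unadjusted p under 0.05 (adjusted p = 0.232 and 0.362). Of the 6 skeletal muscle markers 1 was tested and not called, the sum was at most 1.37 CPM, and Ckm, which defines muscle, had 0 reads in both KO libraries and 0 and 1 in WT. The part of these cells in the levels of the 10 enzymes was not tested.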

How the data were processed

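Liver RNA of 2 KO and 2 WT libraries was measured. Per the labels' protocols, polyadenylated RNA went into TruSeq v2 libraries read as pairs of 101 bases. For each library the authors deposited raw whole-number read counts keyed by Ensembl identifier. TopHat2 2.1.1, HTSeq 0.6.0 and build mm10 were used, per the submitters' processing notes. The annotation release and the counting settings were not found in the sources used here.

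From these counts, genes were filtered (filterByExpr, minimum count 10, minimum total 15), scaled by TMM and tested with edgeR 4.0.16 in R 4.3.3 (two-sided quasi-likelihood F test, robust, genotype as the only term, Benjamini-Hochberg adjustment over all 13836 tested genes). Called means an adjusted p under 0.05. SE is the size of the log2 fold change over the square root of F. The 95% intervals use the total degrees of freedom of the test, the residual ones plus those gained by sharing spread across genes. Intervals from the residual ones alone would be wider. CPM uses TMM-scaled library sizes. GENCODE M21 named 35533 of 37315 identifiers. The procedure was run on simulated counts in which 200 genes were changed, each by more than any enzyme here differed. No effect of replicate number was simulated, so the run does not bear on differences of the size seen in the enzymes. Library pairs differed beyond sampling noise (chi-square per degree of freedom at least 86.5). Copies of the enzymes' transcripts were sought with blastn (at least 90% identity over 200 bases). Promoter sequence is from RefSeq, GRCm38.p6. Of the enzymes 9 were searched, and Acaa2, on chromosome 18, was left out, a cut not made to the comparison promoters.

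The enzymes and lists were chosen with earlier results of these data known. The rule named all 10 enzymes and Fto. On each other list it named the called genes and those with the smallest p, up to 4, and on marker lists up to 3. Not all of these are printed. Added after their values were seen were Ppara, Tmlhe, Dvl2, the pseudogenes, Cps1, Lyve1, Lrat, Col1a1, Fgf21 and the printed adipocyte and muscle markers. DESeq2 1.42.0, limma-voom (limma 3.58.1), other scalings, no filter, a term for the replicate number and leaving out each library were alternatives.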

Additional observations from a re-analysis of the deposited data

How the results depend on the processing

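The median log2 fold change of the 10 enzymes was -0.19 and ran from -0.31 to -0.14 over the alternatives run, and 9 of 10 stayed negative except without KO replicate 1 and without WT replicate 2, where Hadhb turned positive (0.06 and 0.078, with a range of -0.23 to 0.0776 when a library was left out) and 8 of 10 were negative. Under every alternative but a replicate block, 0 of 10 enzymes were called. With the replicate block, 4 were called lower (Slc25a20, Cpt2, Acadm and Acads) among 2729 genes, or 19.7% of those tested. Nothing in the labels ties libraries of equal number together, so the block is an alternative only; across 11515 genes the difference of replicate 2 from replicate 1 in KO correlated with that in WT at r = 0.57, and genes are not independent replicates. Genes called were 829 with no filter, 574 with DESeq2 and 460 to 633 with a library left out, against 264. Of the other lists 7 genes were called, against 14 with no filter, 13 with DESeq2, 55 with the replicate block and 8 to 13 with a library left out (13 without KO replicate 2, 11 without WT replicate 1). With library size alone Pparg, Acot2 and Csf1r lost their calls (adjusted p = 0.0607, 0.103 and 0.0738). In the order per kilobase 3 of 10 enzymes kept their place with the longest transcript. The causes were not tested. With 2 libraries per genotype, intervals of the enzymes reach from -1.01 to 0.62 on the log2 scale. Where a library was left out, the lone library of its genotype was assumed to vary like the other genotype.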
